A study of Mus musculus with 12 samples.

Results

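The 52 genes described here encode the enzymes of the urea cycle and of the breakdown of amino acids in mouse liver. They were taken by gene symbol from a count table of 56748 genes, and a row was found for each of the 52. By role they are 6 genes of the urea cycle, 5 of tyrosine breakdown, 5 of tryptophan breakdown, 4 of histidine breakdown and 9 of methionine, methyl group and sulfur metabolism. A further 6 serve the breakdown of serine, glycine and sarcosine, 6 the handling of glutamate, transamination and proline, and 11 the breakdown of branched-chain amino acids, propionyl groups and lysine. RNA of whole livers was sequenced from mice fasted for 24 h, with 4 livers per genotype, each a separate mouse sample by the labels. The DKO livers lack Atf3, a stress-induced transcription factor, and Cpt2, the inner membrane carnitine palmitoyltransferase of fatty acid oxidation, and the SKO livers lack Cpt2 alone. Both deletions were made with an albumin-Cre transgene, which is driven in cells of the hepatocyte lineage. The controls, called WT, are labelled as floxed for Cpt1a, Cpt1b and Cpt2 without a knockout, while the study describes controls floxed for Atf3 and Cpt2 for its RT-qPCR and calls those of the RNA-seq WT mice. The mice were on a C57BL6 background and the Atf3 allele came from the EUCOMM repository. The age of the mice was not given in the sources used here.

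Amino acids that are not needed for protein are deaminated in hepatocytes, and the urea cycle turns the released ammonia into urea for excretion. The carbon skeletons enter gluconeogenesis, ketone production or the citric acid cycle, each through its own chain of enzymes, most of which are found at high levels in the liver and at low levels elsewhere. Fasting, glucagon and glucocorticoids are known to raise many of these enzymes. ATF3 and its relatives bind cAMP response elements and AP-1-type sites, and C/EBP factors drive many of the liver genes listed here.

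Sequence upstream of the start site is shown for the 4 genes with the largest falls in SKO against WT livers among those with a single promoter in the RefSeq promoter table (GRCm38.p6), as a picture of the regions in front of the genes that moved most. Capitals mark matches to any of 5 motifs searched on both strands in the 250 bases before the start, and each sequence is given 5′ to 3′ on the strand of its gene, ending at the base before the start.
Hal, chr10:93488518-93488767, plus strand: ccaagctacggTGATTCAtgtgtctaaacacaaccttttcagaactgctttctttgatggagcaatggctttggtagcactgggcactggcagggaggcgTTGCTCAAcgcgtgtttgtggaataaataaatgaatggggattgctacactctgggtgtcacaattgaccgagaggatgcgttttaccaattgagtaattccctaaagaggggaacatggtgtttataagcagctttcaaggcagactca
Gamt, chr10:80261013-80261262, minus strand: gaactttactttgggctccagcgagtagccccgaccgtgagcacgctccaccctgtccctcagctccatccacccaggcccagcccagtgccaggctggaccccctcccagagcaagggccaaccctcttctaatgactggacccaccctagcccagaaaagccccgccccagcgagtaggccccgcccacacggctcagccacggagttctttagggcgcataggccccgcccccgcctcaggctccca
Bhmt, chr13:93637759-93638008, minus strand: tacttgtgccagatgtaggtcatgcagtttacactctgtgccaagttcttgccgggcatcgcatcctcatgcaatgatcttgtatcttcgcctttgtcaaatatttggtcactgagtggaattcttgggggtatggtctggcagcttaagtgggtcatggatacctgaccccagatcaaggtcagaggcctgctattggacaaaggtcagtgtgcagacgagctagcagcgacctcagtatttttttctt
Haao, chr17:83846791-83847040, minus strand: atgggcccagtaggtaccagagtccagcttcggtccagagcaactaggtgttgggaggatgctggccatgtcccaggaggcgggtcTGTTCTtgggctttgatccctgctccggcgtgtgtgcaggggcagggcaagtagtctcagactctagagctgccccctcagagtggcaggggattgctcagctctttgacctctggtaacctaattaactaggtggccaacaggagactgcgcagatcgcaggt

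The Hal window held an AP-1-type match (TGANTCA) that begins 239 bases before the start and a C/EBP-type match (TTGCNNAA) that begins 150 bases before it. Haao held a glucocorticoid receptor half-site match (TGTTCT) that begins 164 bases before its start, and the windows of Gamt and Bhmt held none of the 5. Promoters were found for 40 of the 52 genes, with 45 windows in all. The full cAMP response element (TGACGTCA) was in 0 of these 45 windows and in 1.55% of the 32851 promoters of the table. The AP-1-type motif was in the windows of 3 of the 40 genes (Ahcy, Hal and Hpd; 6.67% of windows against 6.75% of all promoters). A match to the composite C/EBP-ATF motif (TGATGNAA) was found in 1 gene, Got1 (2.22% against 3.45%). The C/EBP-type motif was in 3 genes, Aass, Hal and Hgd (6.67% against 9.56%), and the glucocorticoid half-site in 4, Agxt, Bckdhb, Haao and Pccb (8.89% against 16.1%). A match is a string of letters and not a measured binding site.

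Total counts were 14710304 to 20030055 per liver, and the 52 genes took 5.84% ± 0.290 (SD, n = 4) of all counts in WT livers, 3.78% ± 0.596 in the SKO group and 4.32% ± 0.505 in the DKO group (4.15% ± 0.457, n = 3, without DKO 4). Levels are given as CPM, counts scaled to a common library size with TMM factors of all 12 livers, and the values of a genotype are always listed in the order of livers 1 to 4. Cpt2 stood at 234 ± 24.4 CPM in WT livers, 127 ± 22.7 where Cpt2 alone was deleted and 117 ± 11.8 in DKO livers (SD, n = 4). Atf3 was counted 17 to 39 times in WT livers, 259 to 1056 times in SKO livers, 164, 177 and 265 times in DKO livers 1 to 3, and 5 times in DKO 4. The counts of Cpt2 and of Atf3 are over the whole gene and can include exons that the deletion leaves. Those of Atf3 do not check the Atf3 label. The liver labelled DKO 4 also differed from the other DKO livers in Xist, the RNA of the inactive X chromosome, with 20855 counts and 0 counts of Y-linked genes. The study describes male mice, yet SKO 3 likewise held 18063 Xist counts and 2 Y-linked counts, while the other 10 livers held 1 to 19 and 2741 to 4294. For this reason the DKO fold changes of the 52 genes are given with and without DKO 4.

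Most of these transcripts were lower in SKO livers than in WT livers. Of the 52 genes, 40 fell in SKO against WT livers, 1 rose (Sdsl) and 11 did not pass the test, which was edgeR's quasi-likelihood test at a Benjamini-Hochberg adjusted p under 0.05 over all genes tested. Over the 14261 genes tested, 15.4% fell and 16.7% rose. The median log2 fold change of the 52 was -0.95, beside 0.031 over all genes tested, and the range ran from -3.40 for Cth to 0.68 for Sdsl. DESeq2 called 41 lower and 1 higher (17.1% and 16.9% of all genes). In 39 genes every SKO liver was below every WT liver and in 1 above (16.1% and 17.2% of all genes tested). Scaling by total counts in place of TMM shifted the median of all genes by 0.17 and the share of rises among all called genes from 52% to 70.6%. It called 5321 of the 14261 genes, 3759 of them higher. With it 36 of the 52 genes fell, 1 rose and Cps1 and Aass changed sign. The 11 genes without a call included Cps1, Tat, Hgd, Tdo2, Ftcd, Csad, Got1, Bckdhb, Hibch and Aass. All 4 hepatocyte markers counted alongside (Alb, Apoa2, Fgb and Ttr) fell as well, as they did in DKO against WT livers without DKO 4, where 0 of 4 were called with it. Their summed level was 61724 to 75862 CPM in WT livers, 28174 to 50217 in SKO livers, 31455 to 34710 in DKO livers 1 to 3 and 86459 in DKO 4. Most of the sum was Alb, with 51850 to 65151, 22524 to 44518, 24688 to 28454 and 74165 CPM in the same order. The part of this movement in the results on the 52 genes was not tested, and in whole liver fewer hepatocytes and less RNA per hepatocyte cannot be told apart.

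In DKO against WT livers the same test called 3 of the 52 genes lower (Nags, Bhmt and Dmgdh) and 0 higher, where 4.39% of 14448 genes fell and 6.06% rose. Before adjustment 28 genes were lower and 0 higher at a p under 0.05 (12.8% and 16.6% of all genes), and DESeq2 called 16 lower and 0 higher (8.58% and 9.66%). Without DKO 4 the count was 42 lower and 0 higher (17.5% and 18.4% of 14634 genes). At an unadjusted p under 0.05 it was 42 lower and 1 higher, Sdsl (22.1% and 23.1%). All 4 DKO livers were below all WT livers for 11 genes and above for 0 (9.05% and 7.72% of all genes), and DKO livers 1 to 3 for 42 and 1 (20.3% and 21.5%). The median log2 fold change was -0.58 with DKO 4 and -0.82 without it. A single WT liver could also move the first count. It was 0 without WT 1, WT 2 or WT 4, 2 without WT 3, and 1 without DKO 1, DKO 2 or DKO 3. Calls over all genes, higher and lower together, dropped in the same fits. They went from 1510 of 14448 genes to 263, 244 and 367 without WT 1, WT 2 and WT 4. They were 719 without WT 3, and 398, 379 and 288 without DKO 1, DKO 2 and DKO 3, of 14603 to 14968 genes tested. Of the 52 genes, 37 were called in SKO against WT and also in DKO against WT without DKO 4. Cdo1, Sdsl, Gldc and Agxt were called in the SKO comparison and not the other, and Tat, Hgd, Tdo2, Got1 and Hibch the other way round, while Cps1, Ftcd, Csad, Bckdhb and Aass were among those called in neither. Both comparisons use the same WT livers, and a call in only 1 of them does not show that the genotypes differ.

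**Figure D1:**
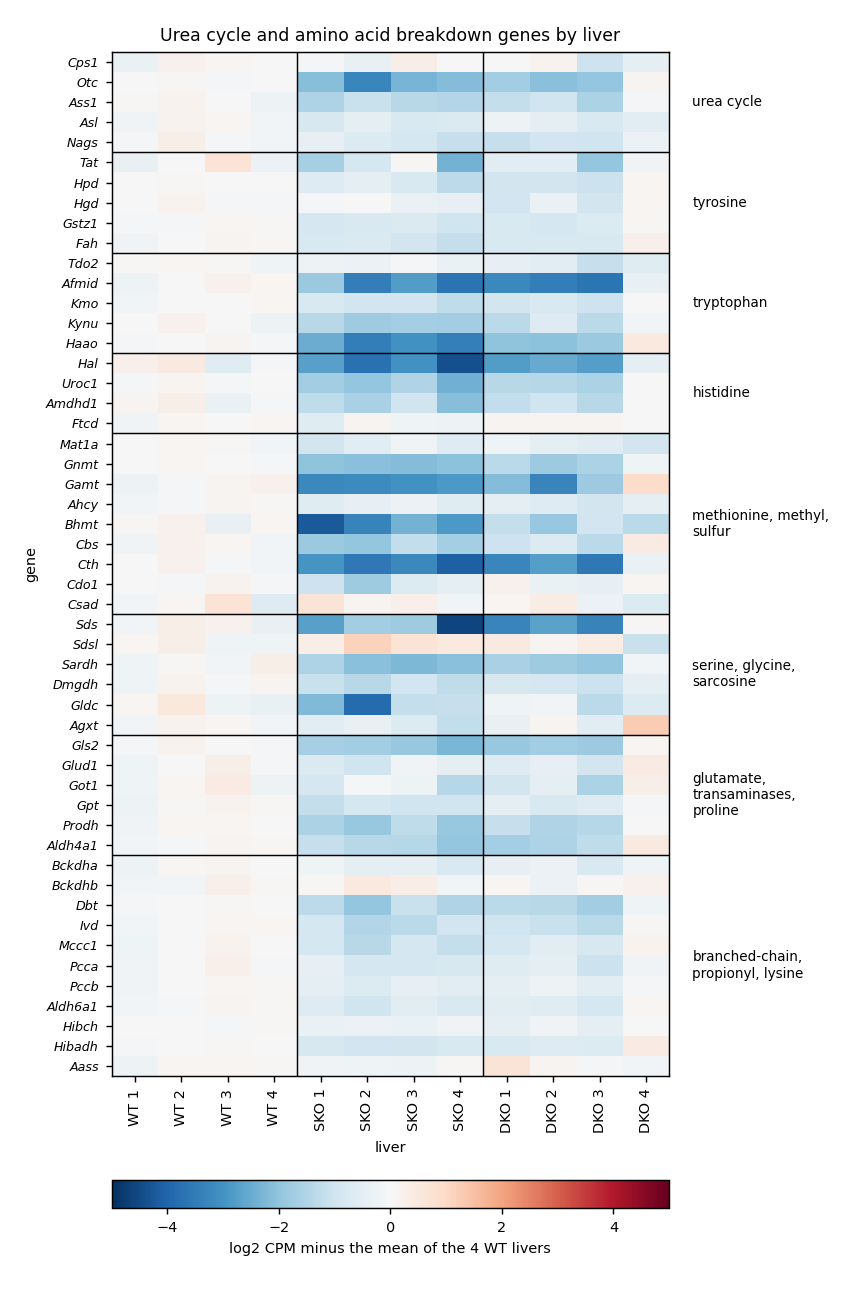
Level of 51 of the 52 genes (rows, by role) in each of the 12 livers (columns), as log2 CPM minus the mean of the 4 WT livers, with blue for lower and red for higher. SKO livers 1 to 4 and DKO livers 1 to 3 are blue for most genes, with medians over the 52 of -0.88, -0.96, -0.90, -1.18, -0.84, -0.66 and -1.06, while DKO 4 has a median of -0.021.

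Among the urea cycle genes, 4 of 6 fell in SKO livers, 1 in DKO livers (4 at an unadjusted p under 0.05, and 3 by DESeq2) and 4 in DKO livers without DKO 4, and Cps1, the enzyme at the mitochondrial entry, was called in no comparison. Otc, which joins carbamoyl phosphate to ornithine, read 354, 369, 333 and 350.1 CPM in WT livers, 80.4, 36.7, 70.4 and 79.2 CPM in SKO livers and 105, 83.6, 91.0 and 388 CPM in DKO livers. Every SKO liver and DKO livers 1 to 3 were far below all WT livers, while DKO 4 was above them. Its log2 fold change, with the standard error, was -2.40 ± 0.22 (adjusted p = 1.69e-05) in SKO against WT, -1.05 ± 0.47 (adjusted p = 0.167) in DKO against WT and -1.91 ± 0.12 (adjusted p = 1.35e-06) without DKO 4. Ass1, which makes argininosuccinate, stood at 4076, 4374, 3948 and 3254 CPM in WT livers, 1343, 1794, 1497 and 1395 CPM in SKO livers and 1696, 1965, 1299 and 3589 CPM in DKO livers. SKO livers and DKO livers 1 to 3 overlapped with each other below WT, and DKO 4 lay inside the WT range. The log2 fold changes of Ass1 were -1.38 ± 0.16 (adjusted p = 6.54e-05) in SKO, -0.86 ± 0.30 (adjusted p = 0.0938) in DKO and -1.24 ± 0.16 (adjusted p = 1.62e-04) in DKO without DKO 4. Asl, which splits argininosuccinate, fell less, with a log2 fold change of -0.70 ± 0.14 (adjusted p = 0.00275) in SKO livers and -0.48 ± 0.14 (adjusted p = 0.0216) in DKO livers without DKO 4, and its value with DKO 4 was -0.49 ± 0.16 (adjusted p = 0.0767). Nags, which makes the activator of carbamoyl phosphate synthetase, read 59.2, 77.3, 60.8 and 58.0 CPM in WT livers, 48.0, 39.2, 34.5 and 28.6 CPM in SKO livers and 28.3, 32.7, 31.4 and 52 CPM in DKO livers. All DKO livers, DKO 4 included, were below all WT livers. The log2 fold change of Nags was -0.77 ± 0.16 (adjusted p = 0.00416) in SKO, -0.81 ± 0.20 (adjusted p = 0.0354) in DKO and -1.05 ± 0.12 (adjusted p = 7.32e-05) in DKO livers without DKO 4. Its call in DKO livers was lost in 7 of the 8 fits that left out 1 liver, all but the one without DKO 4. Cps1, the entry enzyme, had means of 6595 ± 1063 (SD, n = 4), 6485 ± 1332 and 5474 ± 1899 CPM in WT, SKO and DKO livers, with ranges that overlapped.

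Of the 5 tyrosine genes, 3 were called lower in SKO livers, 0 in DKO livers (2 at an unadjusted p under 0.05, and 0 by DESeq2) and all 5 in DKO livers without DKO 4. Hpd, the dioxygenase that makes homogentisate, read 2997, 3195, 2981 and 3046 CPM in WT livers, 1929, 2176, 1799 and 1240.5 CPM in SKO livers and 1633, 1601, 1454 and 3271 CPM in DKO livers. No SKO liver and none of DKO livers 1 to 3 reached the WT range, and DKO 4 lay above it. Its log2 fold changes were -0.78 ± 0.17 (adjusted p = 0.00533) in SKO, -0.60 ± 0.27 (adjusted p = 0.167) in DKO and -0.96 ± 0.11 (adjusted p = 6.34e-05) in DKO livers without DKO 4. Gstz1, the maleylacetoacetate isomerase, changed by -0.84 ± 0.12 (adjusted p = 3.60e-04) in SKO and -0.76 ± 0.11 (adjusted p = 3.36e-04) in DKO livers without DKO 4, and Fah, the last enzyme of the chain, by -0.89 ± 0.14 (adjusted p = 5.30e-04) and -0.75 ± 0.11 (adjusted p = 3.19e-04). With DKO 4 their values were -0.50 and -0.42, not called. For Fah, DKO livers 1 to 3 were nearly alike at 337, 339 and 333 CPM, and DKO 4 was at 673 CPM, above all WT livers. Tat, the aminotransferase that opens the pathway, varied most of the 5 among WT livers and among SKO livers. It read 2466, 3183, 5049 and 2596 CPM in WT livers, 1002, 1737, 3286 and 625 CPM in SKO livers and 2238, 2129, 833 and 2823 CPM in DKO livers. The SKO values spread from 625 to 3286 CPM, and the log2 fold change of -1.0 ± 0.43 (adjusted p = 0.0987) in SKO livers was not called, though larger in size than that of Fah. Hgd was not called in SKO livers (-0.20). In the DKO comparison it read -0.45 with DKO 4 and -0.70 ± 0.15 (adjusted p = 0.00441) without it.

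The 5 tryptophan genes serve the kynurenine route. Tdo2, the dioxygenase that opens tryptophan's ring, read 3289, 3424, 3269 and 2763 CPM in WT livers, 2634, 2618, 3076 and 2554 CPM in SKO livers and 2422, 2219, 1446 and 2071 CPM in DKO livers. SKO values overlapped with WT, whereas all 4 DKO livers were below every WT and every SKO liver. Its log2 fold change was -0.23 ± 0.14 (adjusted p = 0.233) in SKO and -0.63 ± 0.19 (adjusted p = 0.0636) in DKO against WT, and -0.65 ± 0.17 (adjusted p = 0.0133) without DKO 4. In DKO against SKO it was -0.40 ± 0.21 (adjusted p = 0.794), and -0.42 ± 0.21 (adjusted p = 0.747) without DKO 4. Haao, which makes the precursor of quinolinate, stood at 300.0, 317, 347 and 305 CPM in WT livers, 55.9, 28.8, 38.6 and 29.6 CPM in SKO livers and 78, 77.4, 88.5 and 440.0 CPM in DKO livers. DKO livers 1 to 3 lay between the SKO and WT livers overlapping neither, and DKO 4 was above all WT livers. The log2 fold changes of Haao were -3.06 ± 0.21 (adjusted p = 2.58e-06) in SKO, -0.87 ± 0.55 (adjusted p = 0.322) in DKO and -1.96 ± 0.11 (adjusted p = 8.79e-07) in DKO without DKO 4. Kynu, the kynureninase, had 195, 220.4, 194 and 159.8 CPM in WT livers, 72.4, 55.6, 58.6 and 57.6 CPM in SKO livers and 75.3, 124, 75.3 and 174 CPM in DKO livers, and its 4 DKO livers were above all SKO livers. Kynu changed by -1.66 ± 0.14 (adjusted p = 1.06e-05) in SKO and -1.07 ± 0.18 (adjusted p = 9.74e-04) in DKO livers without DKO 4, and its value with DKO 4 was -0.76 ± 0.27 (adjusted p = 0.0932). Afmid, the formamidase that follows Tdo2, changed by -2.79 ± 0.35 (adjusted p = 1.21e-04) in SKO and -3.46 ± 0.16 (adjusted p = 2.17e-07) in DKO livers without DKO 4, with 5.59 to 7.62 CPM in DKO livers 1 to 3 and 55.6 in DKO 4. With DKO 4 the value of Afmid was -1.93 ± 0.70 (adjusted p = 0.101). Afmid overlaps Tk1 on the opposite strand, which had 61.4% as many counts and itself changed by -2.88 in SKO and -3.39 in DKO livers without DKO 4 (-1.87 with it, not called). Kmo, the hydroxylase, fell with a log2 fold change of -0.98 in SKO livers. In all, 4 of the 5 tryptophan genes fell in SKO livers, 0 in DKO livers (4 at an unadjusted p under 0.05, and 2 by DESeq2) and 5 in DKO livers without DKO 4.

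Histidine breakdown had 3 of 4 genes lower in SKO livers and 3 of 4 in DKO livers without DKO 4, and 0 of 4 in DKO livers with it (3 at an unadjusted p under 0.05, and 2 by DESeq2). Hal, the lyase of the first step whose upstream sequence is given above, read 958, 1106, 533 and 763 CPM in WT livers, 122, 60.8, 99.3 and 38.3 CPM in SKO livers and 116, 142, 121 and 579.9 CPM in DKO livers. SKO livers and DKO livers 1 to 3 were all below the lowest WT liver by a wide margin, and DKO 4 was inside the WT range. Its log2 fold change was -3.39 ± 0.36 (adjusted p = 4.01e-05) in SKO, -1.79 ± 0.54 (adjusted p = 0.0623) in DKO and -2.73 ± 0.23 (adjusted p = 9.39e-06) in DKO without DKO 4. Uroc1, the urocanate hydratase, stood at 478, 550.3, 465 and 500.3 CPM in WT livers, 148, 129, 174 and 93.9 CPM in SKO livers and 189, 184, 167 and 509 CPM in DKO livers, again with DKO 4 at WT levels. Uroc1 changed by -1.88 ± 0.18 (adjusted p = 2.22e-05) in SKO and -1.46 ± 0.11 (adjusted p = 4.69e-06) in DKO livers without DKO 4, and Amdhd1, the imidazolonepropionase, by -1.46 ± 0.23 (adjusted p = 5.07e-04) and -1.20 ± 0.16 (adjusted p = 1.79e-04). With DKO 4 their values were -0.91 and -0.78, not called. Ftcd, which hands the formimino group to folate, was the exception. Its means were 574 ± 52.5 (SD, n = 4), 497 ± 107 and 614 ± 31.1 CPM in WT, SKO and DKO livers, and it was not called in any comparison.

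Of the 9 genes of methionine, methyl group and sulfur metabolism, 8 fell in SKO livers, 1 in DKO livers (5 at an unadjusted p under 0.05, and 4 by DESeq2) and 7 in DKO livers without DKO 4. Bhmt, which remethylates homocysteine with betaine, read 7022, 7827, 5280.5 and 7126 CPM in WT livers, 367, 673, 1299 and 909 CPM in SKO livers and 2972, 1829.6, 3492 and 2673 CPM in DKO livers. The 3 genotypes did not overlap for Bhmt: all DKO livers lay above all SKO livers and below all WT livers, and DKO 4 was among the other DKO livers. Its changes were -3.07 ± 0.33 (adjusted p = 4.74e-05) in SKO and -1.30 ± 0.24 (adjusted p = 0.0166) in DKO against WT, with -1.29 ± 0.22 (adjusted p = 0.00108) without DKO 4, and the DKO call was lost in 3 of the 8 fits that left out 1 liver. Between DKO and SKO livers Bhmt differed by 1.78 ± 0.37 (adjusted p = 0.314), or 1.77 ± 0.37 (adjusted p = 0.155) without DKO 4. DESeq2 put this difference past the threshold (1.77, adjusted p = 0.000436), as did the fit without the filter on low counts (1.74, adjusted p = 0.0283) and the one limited to livers with Y-linked counts (2.11, adjusted p = 0.0448), which called 0.0905% of all genes higher and 0.0557% lower.

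Cth, the cystathionine lyase that makes cysteine, had 855, 1015, 830.1 and 782 CPM in WT livers, 113, 72.4, 93.9 and 51.6 CPM in SKO livers and 89.4, 127, 73.3 and 686 CPM in DKO livers. DKO 1 and DKO 3 lay in the range of the SKO livers, DKO 2 just above it, and DKO 4 was near, though still below, the lowest WT liver. Cth had log2 fold changes of -3.40 ± 0.23 (adjusted p = 2.58e-06) in SKO, -1.81 ± 0.66 (adjusted p = 0.104) in DKO and -3.17 ± 0.19 (adjusted p = 1.02e-06) in DKO livers without DKO 4. Gamt, which makes creatine from guanidinoacetate, is expressed at a lower level and read 63.0, 71.9, 82.7 and 87.0 CPM in WT livers, 7.92, 8.24, 9.09 and 10.2 CPM in SKO livers and 16.7, 7.54, 21.6 and 143 CPM in DKO livers. DKO 4 held more than any WT liver, while DKO 2 was below every SKO liver. Its log2 fold change was -3.10 ± 0.15 (adjusted p = 2.88e-07) in SKO, -0.67 ± 0.75 (adjusted p = 0.594) in DKO and -2.30 ± 0.29 (adjusted p = 1.25e-04) in DKO without DKO 4. Gnmt, which uses up methyl groups on glycine, read 1939, 2113, 2008 and 1859 CPM in WT livers, 486, 463, 437 and 474 CPM in SKO livers and 774, 562, 666 and 1727 CPM in DKO livers, and as for Bhmt its 3 genotypes did not overlap. Gnmt had log2 fold changes of -2.09 ± 0.13 (adjusted p = 1.24e-06) in SKO, -1.07 ± 0.33 (adjusted p = 0.0685) in DKO and -1.56 ± 0.14 (adjusted p = 1.32e-05) in DKO livers without DKO 4. Cbs, the first enzyme from homocysteine to cysteine, had a log2 fold change of -1.67 in SKO livers and -0.99 in DKO livers without DKO 4 (-0.48 with it, not called). Its difference between DKO and SKO was 1.20 ± 0.37 (adjusted p = 0.557), and without DKO 4 it was 0.67 ± 0.21 (adjusted p = 0.45). Mat1a, which makes S-adenosylmethionine, and Ahcy, which splits S-adenosylhomocysteine, fell less, at -0.56 and -0.48 in SKO livers. Cdo1, the cysteine dioxygenase, fell in SKO livers (-0.92) and had -0.074 in DKO livers (-0.14 without DKO 4), where all 4 lay above every SKO liver. Csad, the decarboxylase towards taurine, was not called in any comparison, with a log2 fold change of 0.17 in SKO livers.

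In serine, glycine and sarcosine breakdown 5 of 6 genes fell and 1 rose in SKO livers, while 1 fell in DKO livers (2 at an unadjusted p under 0.05, and 2 by DESeq2) and 3 in DKO livers without DKO 4. Sds, the serine dehydratase that turns serine into pyruvate, read 328, 443, 422 and 279 CPM in WT livers, 55.3, 109, 105 and 15.0 CPM in SKO livers and 36.9, 56.6, 35.3 and 381 CPM in DKO livers. All SKO livers and DKO livers 1 to 3 were below every WT liver, with SKO 4 the lowest, and DKO 4 sat in the WT range. Its change was -2.37 ± 0.47 (adjusted p = 0.00243) in SKO, -1.51 ± 0.73 (adjusted p = 0.204) in DKO and -3.10 ± 0.22 (adjusted p = 2.54e-06) in DKO livers without DKO 4. Sdsl, a serine dehydratase-like enzyme, moved the other way, with 33.5, 38.5, 26.7 and 26.9 CPM in WT livers, 39.1, 69.9, 49.3 and 43.7 CPM in SKO livers and 42.6, 34.2, 40.5 and 14.4 CPM in DKO livers. All SKO livers were above all WT livers, and DKO 4 was the lowest of the 12. Sdsl rose with a log2 fold change of 0.68 ± 0.19 (adjusted p = 0.0175) in SKO livers, and its values in DKO livers were 0.081 with and 0.33 ± 0.15 (adjusted p = 0.109) without DKO 4. The rise was not called without WT 3, without WT 4 or when all 12 livers entered the fit. Sardh and Dmgdh, the mitochondrial dehydrogenases of sarcosine and dimethylglycine, fell with log2 fold changes of -1.98 ± 0.19 (adjusted p = 2.08e-05) and -1.19 ± 0.14 (adjusted p = 9.93e-05) in SKO livers. Dmgdh was called in DKO livers with DKO 4 as well, at -0.79 ± 0.16 (adjusted p = 0.0209), and at -0.92 ± 0.13 (adjusted p = 2.54e-04) without it. DKO 4 at 433 CPM was below the lowest WT liver at 529 CPM, and the call was lost in 6 of the 8 fits that left out 1 liver. Sardh had -1.16 ± 0.39 (adjusted p = 0.0841) with and -1.79 ± 0.15 (adjusted p = 8.03e-06) without DKO 4. Gldc, the glycine decarboxylase, fell with a log2 fold change of -1.82 in SKO livers, with 19.7 to 131 CPM there against 226 to 416 CPM in WT. In DKO livers Gldc was at -0.56 with and -0.52 without DKO 4 and was not called. Agxt, which turns glyoxylate into glycine, changed by -0.69 in SKO livers and read 216, 301, 187 and 660 CPM in the DKO livers, of which DKO 4 was above all WT livers.

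All 6 genes around glutamate, transamination and proline were lower on average in SKO livers, with 5 of them called, 0 called in DKO livers (3 at an unadjusted p under 0.05, and 1 by DESeq2) and 6 in DKO livers without DKO 4. Gls2, the liver glutaminase that feeds ammonia to the urea cycle, read 460.5, 560.2, 499 and 478 CPM in WT livers, 158, 151, 132 and 101 CPM in SKO livers and 134, 151, 140.4 and 536 CPM in DKO livers. SKO livers and DKO livers 1 to 3 shared a range far below WT, and DKO 4 was at the WT level. Its changes were -1.88 ± 0.16 (adjusted p = 1.05e-05) in SKO, -1.04 ± 0.44 (adjusted p = 0.148) in DKO and -1.81 ± 0.11 (adjusted p = 1.30e-06) in DKO livers without DKO 4. Prodh and Aldh4a1, which carry proline to glutamate, fell with log2 fold changes of -1.65 ± 0.16 (adjusted p = 2.36e-05) and -1.46 ± 0.16 (adjusted p = 6.13e-05) in SKO livers, and of -1.35 ± 0.13 (adjusted p = 2.27e-05) and -1.49 ± 0.13 (adjusted p = 1.36e-05) in DKO livers without DKO 4. With DKO 4 their values were -0.87 and -0.70, not called. Gpt, the alanine aminotransferase, fell with a log2 fold change of -1.01 in SKO livers, and its 4 DKO livers (305 to 495 CPM) were all above the SKO livers (229 to 281 CPM). Glud1, the glutamate dehydrogenase, changed by -0.58 in SKO livers. Got1, the cytosolic aspartate aminotransferase, had a like value of -0.60 but a wider spread, from 242 to 598 CPM in SKO livers, and was not called.

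Among the 11 genes of branched-chain, propionyl and lysine breakdown 8 fell in SKO livers, 9 in DKO livers without DKO 4 and 0 with it (5 at an unadjusted p under 0.05, and 2 by DESeq2). Dbt, the core subunit of the branched-chain keto acid dehydrogenase, read 126, 133, 141 and 137 CPM in WT livers, 54.6, 35.4, 61.6 and 46.8 CPM in SKO livers and 53.0, 51.2, 39.9 and 117 CPM in DKO livers. All SKO and all DKO livers were below the lowest WT liver, with DKO 4 at 117 CPM close to it. Dbt had log2 fold changes of -1.44 ± 0.16 (adjusted p = 5.70e-05) in SKO, -1.02 ± 0.30 (adjusted p = 0.0582) in DKO and -1.48 ± 0.12 (adjusted p = 7.07e-06) in DKO livers without DKO 4. Of the other subunits of the same complex, Bckdha also fell in SKO livers, at -0.46, and Bckdhb, at 0.19, was not called. Of the later enzymes, Ivd of the leucine branch fell with a log2 fold change of -1.15, Mccc1, a methylcrotonyl-CoA carboxylase subunit, with -1.08 ± 0.14 (adjusted p = 1.71e-04) and Hibadh of the valine branch with -0.85 ± 0.11 (adjusted p = 1.45e-04) in SKO livers. Pcca and Pccb, the subunits of propionyl-CoA carboxylase, and Aldh6a1 of the valine branch were lower by smaller amounts, at -0.75, -0.53 and -0.75, all called. Hibch was close to the threshold in SKO livers at -0.27 (70.2 to 78.4 CPM against 84.4 to 91.0 CPM in WT) and was called in DKO livers without DKO 4 at -0.36 (-0.24 with it, not called). Aass, the first enzyme of lysine breakdown, was not called, with log2 values of -0.15 (SKO), 0.19 (DKO) and 0.28 (DKO without DKO 4).

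**Figure D2:**
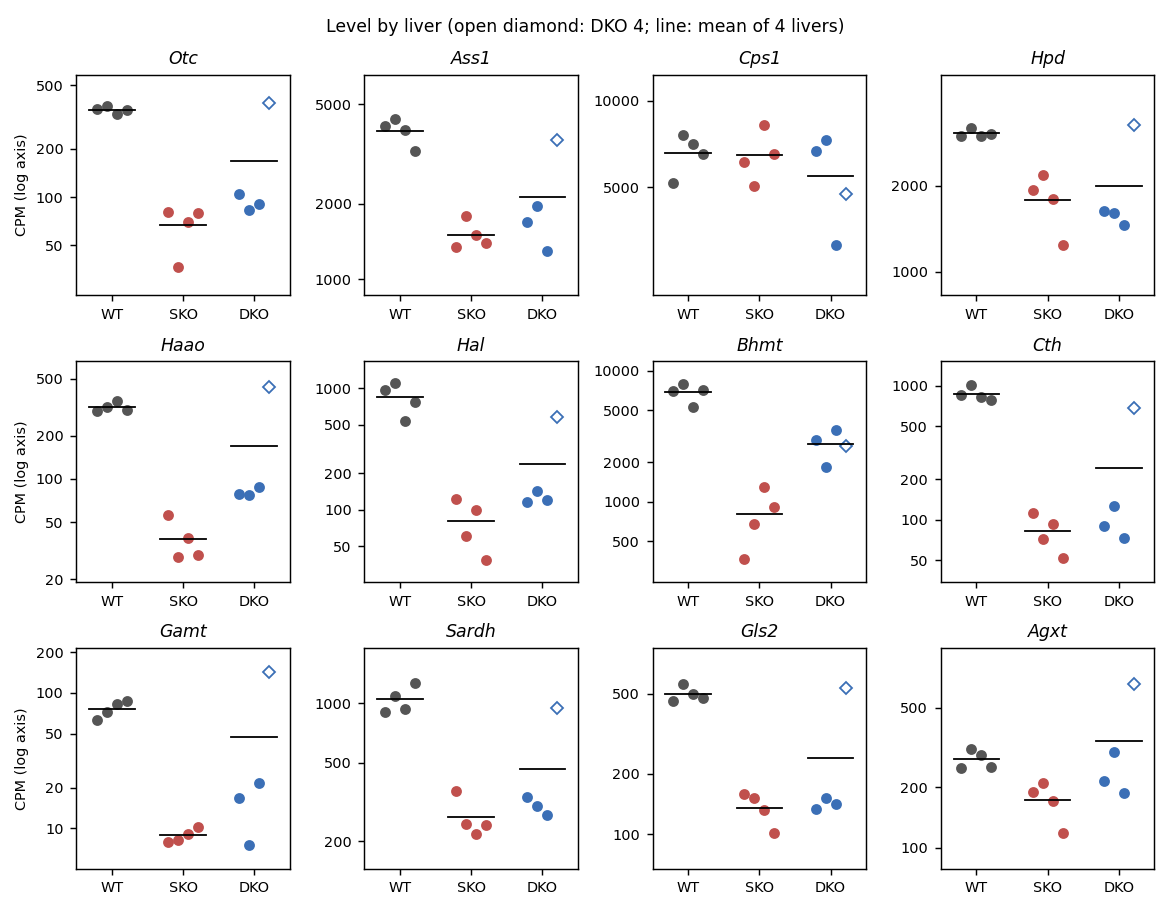
Level in CPM (log axis) of 12 genes in each liver, by genotype, with lines at the mean of 4 livers and DKO 4 as an open diamond. DKO 4 sits in or above the WT range for Otc, Ass1, Hpd, Haao, Hal, Gamt, Sardh, Gls2 and Agxt, whereas for Bhmt it stays with the other DKO livers at 2673 CPM.

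DKO 4 lay within the range of the 4 WT livers for 26 of the 52 genes, above every WT liver for 11 and below every WT liver for 15. These shares of 50%, 21.2% and 28.8% were near those of the 13072 genes with a mean above 1 CPM (44.6%, 25.2% and 30.2%). Of the 42 genes called lower without DKO 4, 50% were within, 23.8% above and 26.2% below in DKO 4, beside 33.4%, 21.7% and 44.9% of all 2555 genes called lower in that fit, and neither difference was tested. The 11 genes above included Agxt (660 CPM against at most 312 in WT), Gamt (143 against at most 87.0) and Haao (440 against at most 347). The 15 below included Bhmt (2673 against at least 5280), Mat1a (5327 against at least 9166), Tdo2 (2071 against at least 2763) and Sdsl (14.4 against at least 26.7). Within the DKO group DKO 4 was the highest liver for 40 of the 52 genes (76.9%), beside 33.1% of the same 13072 genes. It was the lowest for 5 (Ftcd, Mat1a, Csad, Sdsl and Aass), beside 39.2% of those genes. The other Xist-positive liver was SKO 3, in which the 52 genes took 4.66% of all counts, against 3.38% to 3.53% in the other SKO livers, and the hepatocyte marker sum of 50217 CPM was the highest of its group. Most of that sum was Alb (44518 CPM), while Ttr, Apoa2 and Fgb were each higher in another SKO liver. SKO 3 was the highest SKO liver for 17 of the 52 genes and the lowest for 4 (23.9% and 26.6% of all genes). Its median difference from WT was -0.90 on the log2 scale, between -0.88 and -0.96 in SKO 1 and SKO 2, and without it 42 genes were called in SKO against WT instead of 41 (4711 and 4576 of all genes tested). Cpt2, counted over the whole gene, stood at 99.9 CPM in DKO 4, the lowest of the 12 livers, against 199 to 250.4 CPM in WT livers. The part of the absent Y-linked counts and of the hepatocyte marker level in the difference of DKO 4 was not tested.

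**Figure D3:**
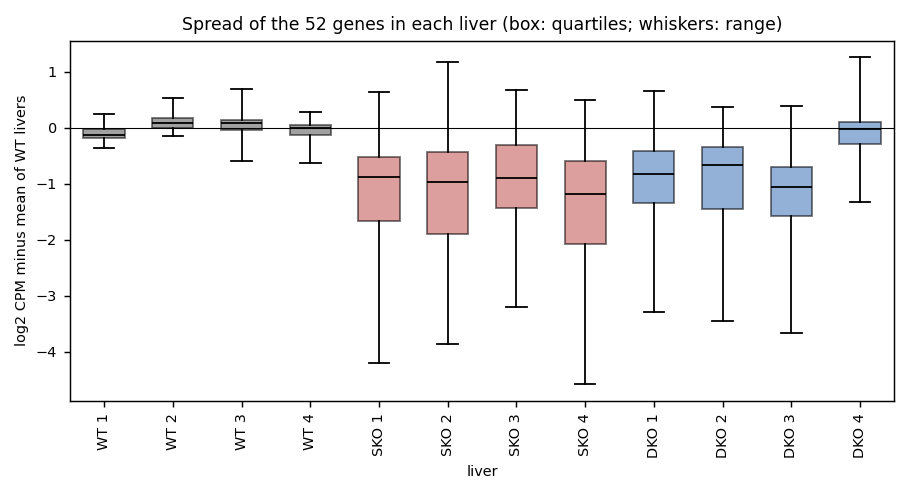
Spread of the 52 genes in each liver as log2 CPM minus the mean of the WT livers, with boxes for the quartiles, a line for the median and whiskers for the full range. The medians of the SKO livers and of DKO livers 1 to 3 lie between -0.66 and -1.18 and that of DKO 4 at -0.021.

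DKO against SKO livers addresses what the loss of Atf3 adds to the loss of Cpt2. In this comparison 0 of the 52 genes passed the test in edgeR and 1 (Bhmt) in DESeq2, where edgeR called 0.00696% of all genes higher and 0.0139% lower, and DESeq2 0.466% and 0.209%. At an unadjusted p under 0.05 in edgeR, 16 genes were higher and 0 lower in DKO livers (4.11% and 2.38% of 14363 genes). These were Otc, Kynu, Haao, Hal, Uroc1, Gnmt, Gamt, Bhmt, Cbs, Cth, Cdo1, Gldc, Agxt, Gpt, Prodh and Mccc1. Without DKO 4 edgeR again called 0 of the 52 (0.0617% and 0.0411% of all genes). Then 9 were higher and 1 lower, Hgd, at an unadjusted p under 0.05 (3.77% and 3.45%), and the median log2 difference of the 52 genes went from 0.43 to 0.11. The largest differences with DKO 4 were those of Gamt (2.47 ± 0.79 (adjusted p = 0.583)) and Haao (2.21 ± 0.59 (adjusted p = 0.454)), which became 0.80 ± 0.29 (adjusted p = 0.555) and 1.10 ± 0.22 (adjusted p = 0.135) without it. In 9 genes all 4 DKO livers were above all SKO livers (Otc, Kynu, Haao, Gnmt, Bhmt, Cdo1, Gpt, Mccc1 and Hibadh) and in 1 below (Tdo2), against 2.08% and 1.86% of all genes. DKO livers 1 to 3 alone separated from SKO livers in the same 10 genes, against 4.05% and 3.55% of all genes. The levels of DKO livers 1 to 3 in these 9 genes lay between those of SKO and WT livers except for Cdo1, where DKO 1 at 2143 CPM exceeded the highest WT liver.

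**Figure D4:**
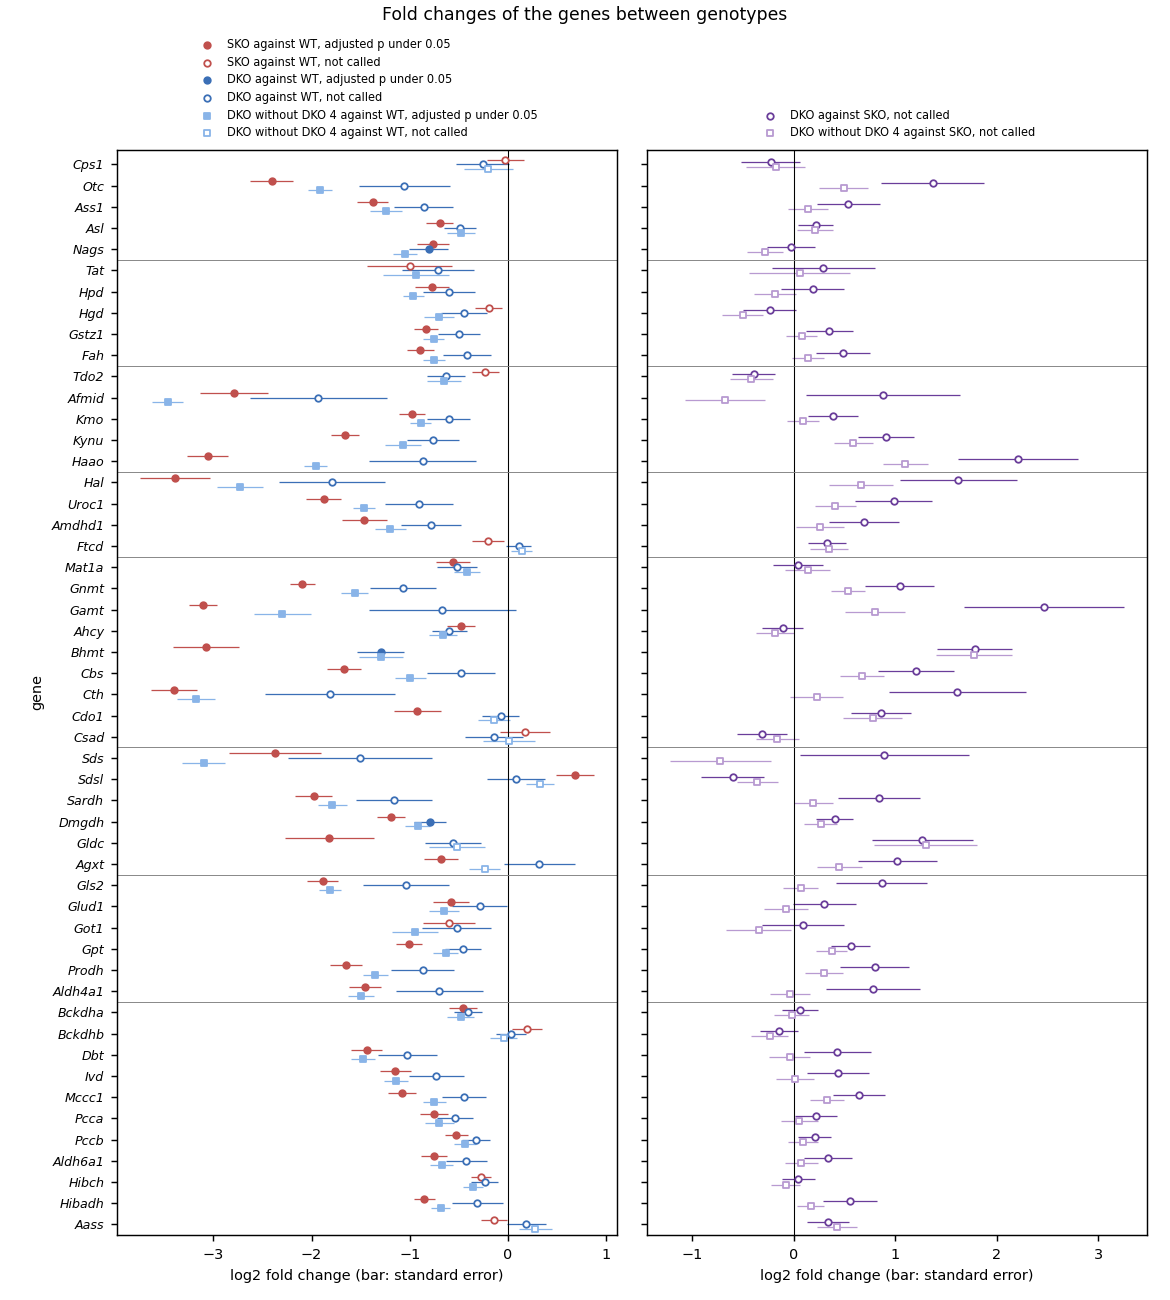
Log2 fold changes with standard errors for 51 of the 52 genes against WT (left) and of DKO against SKO (right), with filled symbols for an adjusted p under 0.05 and squares for the fits without DKO 4. Most SKO and 3-liver DKO values are negative and filled on the left, and every symbol on the right is open.

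Chromosomal neighbours did not always move alike. Sds and Sdsl lie 3715 bases apart on chromosome 5 on opposite strands, and Sds fell while Sdsl rose in SKO livers. In the count table Sds spans 120614591 to 120621997 and Sdsl 120596251 to 120610875 of that chromosome. Hal and Amdhd1, the first and a later enzyme of histidine breakdown, lie 4033 bases apart on chromosome 10 and both fell, Hal by more (-3.39 against -1.46). Bhmt and Dmgdh, consecutive in the use of betaine, are 36471 bases apart on chromosome 13, with falls of -3.07 and -1.19 in SKO livers. In DKO 4 Dmgdh was the highest and Bhmt the second lowest of the DKO group.

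**Figure D5:**
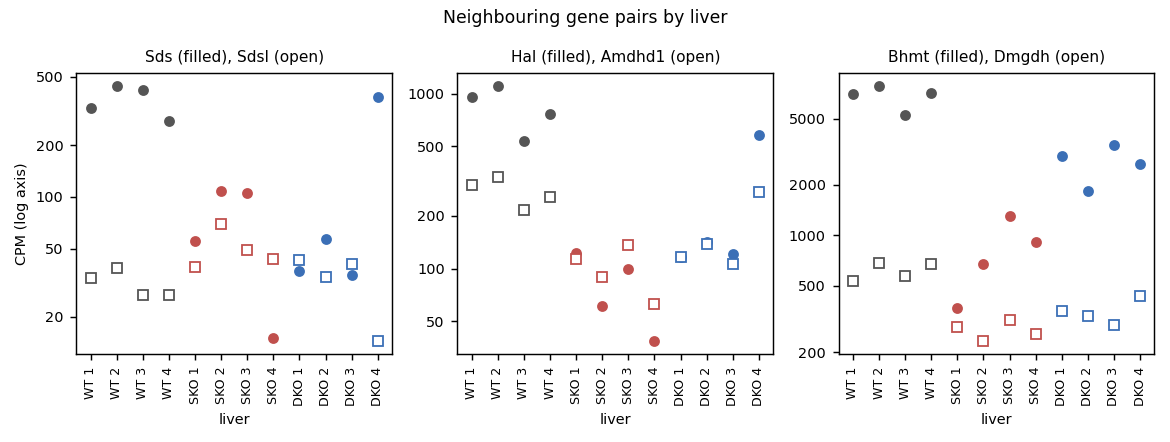
CPM (log axis) in each liver of 3 pairs of neighbouring genes, with filled circles for the first and open squares for the second gene of each pair. In SKO livers Sds is at 15.0 to 109 CPM against 279 to 443 CPM in WT, while Sdsl is at 39.1 to 69.9 CPM against 26.7 to 38.5 CPM.

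For 8 genes a protein-coding gene on the opposite strand overlaps and holds more than 5% as many counts, so that reads of the pair could not be told apart if strand was not used in counting, which the sources used here do not say. Besides Afmid these are Kmo with Fh1 (106%), Sds with Plbd2 (65.2%), Pcca with Ggact (58.4%), Prodh with Dgcr6 (17.6%), Csad with Zfp740 (14.5%), Gls2 with Spryd4 (11.1%) and Bckdha with B3gnt8 (5.08%). In SKO against WT livers the log2 fold change of Fh1 was -0.066, that of Plbd2 0.056, Dgcr6 -0.17, Zfp740 0.018, Spryd4 0.074 and B3gnt8 -0.67, all without a call, and Ggact -0.59, which was called lower.

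Per length of transcript the 52 genes spanned a wide range of levels. In RPKM, that is CPM per kilobase of gene length, Mat1a was the highest in all 3 genotypes, with 2931 ± 213 (SD, n = 4) in WT livers, and Mccc1 the lowest, with 4.78 ± 0.484. Gnmt at 1642 ± 89.5 and Ass1 at 1621 ± 196 RPKM followed in WT, and this neighbouring pair did not differ beyond its spread. In SKO livers Gnmt moved from place 2 to place 10, Haao from 35 to 49 and Cth from 12 to 35, while Cps1 came from place 7 to 2 with no called change of its own level.

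Beyond the 52 enzymes, a list of 70 other genes of these pathways, their transporters and their regulators was read in the same fits. Of these, 68 were tested in SKO against WT livers, 41 fell and 4 rose (Psat1, Bckdk, Gpt2 and Mat2a), beside 15.4% and 16.7% of all genes, with a median of -0.59. Those with the smallest p-values were Kyat1, a kynurenine aminotransferase (-2.48 ± 0.15 (adjusted p = 1.08e-06)), Pipox of sarcosine oxidation (-2.12 ± 0.16 (adjusted p = 5.41e-06)), Hao1 of glycolate oxidation (-3.53 ± 0.28 (adjusted p = 7.10e-06)), Acmsd, a decarboxylase of the kynurenine route (-3.43 ± 0.31 (adjusted p = 1.61e-05)), and Psat1 of serine synthesis, which rose (3.75 ± 0.28 (adjusted p = 4.68e-06)). Psat1 read 0.78, 0.949, 0.585 and 0.605 CPM in WT livers, 11.7, 9.31, 6.55 and 12.1 CPM in SKO livers and 3.42, 7.29, 5.64 and 0.16 CPM in DKO livers. It was higher in all SKO livers and DKO livers 1 to 3 than in any WT liver, and DKO 4, at 3 counts, was the lowest of all. In DKO against WT livers edgeR called 8 of them lower and 0 higher, beside 4.39% and 6.06% of all genes. At an unadjusted p under 0.05 there were 26 lower and 4 higher (12.8% and 16.6% of all genes). DESeq2 called 15 lower and 3 higher (8.58% and 9.66%). Without DKO 4 there were 47 falls and 3 rises, beside 17.5% and 18.4% of all genes, among them Glul, the glutamine synthetase of the hepatocytes around the central vein (-2.16 ± 0.12 (adjusted p = 6.55e-07)). With DKO 4 the value of Glul was -1.09 ± 0.55 (adjusted p = 0.216), and DKO 4 at 1411 CPM was above every WT liver (1122 to 1264 CPM), against 236 to 282 CPM in DKO livers 1 to 3. Between DKO and SKO livers 0 of the 68 were called in edgeR, where 0.00696% of all genes were called higher and 0.0139% lower. At an unadjusted p under 0.05, 6 were higher and 0 lower (4.11% and 2.38% of all genes). DESeq2 called 1 higher and 0 lower (0.466% and 0.209%). Agxt2 had the smallest p in edgeR (0.67 ± 0.16 (adjusted p = 0.396)).

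Markers of other cells were counted as a check of the tissue, and none of the marker lists stood at 0 throughout. In SKO against WT livers 1 of 6 macrophage markers rose (Cd68), 1 of 5 stellate markers rose (Dcn), 0 of 5 endothelial markers were called, and of 3 erythroid genes Hba-a1 and Hbb-bs rose and Alas2 fell. Sox9 was the only called marker of 3 cholangiocyte genes tested, and it fell. Summed macrophage markers spanned 140 to 268 CPM in WT livers, 149 to 310 CPM in the SKO group and 97.9 to 134 CPM in DKO livers 1 to 3, and reached 297 CPM in DKO 4. In DKO against WT livers without DKO 4, where 42 of the 52 genes fell, 4 of the 6 macrophage markers fell (Marco, C1qa, Csf1r and Clec4f) and Cd68 rose, Dcn rose among the stellate markers, and Sox9 and Alas2 fell. With DKO 4, Marco, Sox9 and Alas2 were the markers called, all lower. The part of these markers in the results on the 52 genes was not tested.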

How the data were processed

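RNA-seq of 12 whole livers was used. The authors deposited raw read counts per Ensembl gene for 56748 genes. Per the labels, Novogene made the libraries, and the submitters' processing notes name HISAT2 and GRCm38 (mm10). The counting program, annotation release and use of strand were not given in the sources used here, and 0 of the 52 genes has the coordinates of GENCODE M21 on GRCm38, so table coordinates carry no build here. Deposited FPKM values and the authors' fold changes and p-values were not used.

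Each pair of genotypes was fitted in edgeR 4.0.16 (R 4.3.3) with TMM scaling, filterByExpr and the quasi-likelihood test, two-sided, with Benjamini-Hochberg adjustment over all genes tested and a threshold of 0.05. All 52 genes passed the filter in each comparison. The code was tested on simulated counts. CPM used TMM factors of all 12 livers, log2 CPM a prior count of 2, and RPKM the gene lengths of the deposited count table. A count of 0 allows up to 3 counts, or 0.145 to 0.195 CPM, covering counting error only. No pair of libraries was a copy of another (chi-square per degree of freedom at least 20.6). P-values measure the spread between these livers.

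The 52 genes, the other lists, the motifs and the tests were chosen with earlier results of these data known. Any of the 52 genes could be named, and some results on single genes are not reported here. Fold changes with errors were given for up to 3 genes per role with the smallest p-value in a comparison, and for genes singled out after their values were seen (Sdsl, Tat, Hgd, Afmid and the like). DESeq2 1.42.0, RLE size factors, total counts, no filter, all 12 livers in one fit, a replicate block and leaving out each liver were the alternatives. Motifs were searched in RefSeq promoters (GRCm38.p6).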

Additional observations from a re-analysis of the deposited data

Results flagged for a closer look

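In 20 of the 156 groups of 4 livers (52 genes in 3 genotypes), 1 liver stood apart from the other 3 by Dixon's test at the 95% level, which compares its gap to the next liver with the whole range. Each time it was the highest liver. The test was run on CPM without a log, a scale on which a low liver stands apart less than on a log scale. Chance flags about 1 in 20 groups, but the genes share the same 12 livers and are not independent. In 16 of the 20 groups the liver was DKO 4, and the share of all genes in which the test would flag it is not given here. Over the 13072 genes with a mean above 1 CPM, DKO 4 was the highest DKO liver for 33.1% and the lowest for 39.2%. Its level was 388.5 CPM for Otc, 3271 for Hpd, 793.2 for Gstz1, 672.6 for Fah, 55.59 for Afmid, 440.0 for Haao, 579.9 for Hal and 509.4 for Uroc1. It was 142.5 CPM for Gamt, 686.3 for Cth, 380.9 for Sds, 946.9 for Sardh, 536.0 for Gls2, 313.9 for Prodh, 306.9 for Aldh4a1 and 318.7 for Hibadh. Every role holds at least 1 of these 16 genes. The hepatocyte marker sum of DKO 4 was 86459 CPM against 31455 to 34710 in the other DKO livers, and its Xist and Y-linked counts also set it apart. The part of these in the levels was not tested.

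The other 4 were single livers of other genotypes. Nags reached 77.27 CPM in WT 2, Tdo2 3076 CPM in SKO 3, Pcca 63.15 CPM in SKO 1 and Hibch 78.37 CPM in SKO 4.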

How the results depend on the processing

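For SKO against WT, 36 to 41 genes were called lower when any liver was left out, and the number called higher was 0 or 1. Over all genes 3617 to 4711 were called in either direction in these fits, of 14475 to 14608 tested. The fit over all 12 livers called 0 higher, beside 1998 of 14920 genes. Scaling by total counts moved the median log2 fold change to -0.77. For DKO against WT the number called lower was 16 in DESeq2, 5 with total counts, 7 without the filter and 10 over all 12 livers, and it ran from 0 to 42 when a liver was left out. Calls over all genes, in both directions, were 2635 of 14448, 2257 of 14448, 1680 of 28551 and 1729 of 14920 in these settings. They ran from 244 of 14968 to 5253 of 14634 when a liver was left out. Total counts turned the sign of Cdo1 and Csad in this comparison, raised the median of all genes by 0.17 and the share of rises among all calls from 58.0% to 79.2%. For DKO against SKO, 1 gene (Bhmt) was called higher in DESeq2, without the filter and in livers with Y-linked counts only. Over all genes 67 of 14363, 25 of 28396 and 13 of 14358 were called higher in these fits. Of the 24 genes recomputed singly in each comparison none changed sign, and in SKO against WT all kept their side of the threshold. In DKO against WT 26 single values came to pass it and 2 to miss it under other settings. When a liver was left out, 21 came to pass it, all of them in the fit without DKO 4, and 16 came to miss it. The replicate numbers did not pair the livers: same-number correlations ran from -0.387 to 0.106 and 0 livers correlated best with their own number, and the highest correlation between genotypes was 0.479, of SKO 3 with DKO 4. With the replicate block 41 genes were called in SKO against WT (39 of them shared), 2 in DKO against WT (Dmgdh, which was also called without the block, and Sardh, with Bhmt and Nags lost) and 0 in DKO against SKO. Over all genes the block fits called 4111 of 14261, 691 of 14448 and 0 of 14363. A gene not called with DKO 4 in the fit is not shown to be unchanged.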
